A study of Mus musculus with 34 samples.

Results

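The genes described here are 8 enzymes and lipid-handling proteins of muscle, Acadl, Acad11, Hadh, Acaa2, Etfa, Lpl, Scd1 and Lpcat1, among 637 genes named by a single symbol on both arrays of the study. They were selected on measured values of these same arrays, without a record of which comparison chose which gene, so their differences are given as descriptions, and a p-value is printed only to say whether a gene passed the threshold. Each of the 8 genes had a probe in both value tables and passed the filter on missing values in both. Acaa2 was represented by 2 probes in each table, Scd1 by 3 and the other genes by 1, which made 11 probes per table.

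Muscle takes fatty acids from lipoproteins in the blood and burns them in mitochondria, where each turn of beta-oxidation shortens the chain by a cycle of dehydrogenation, hydration, a further dehydrogenation and thiolytic cleavage. The electrons of the first step pass through a flavoprotein to the respiratory chain. Fatty acids that are not burned are desaturated, stored or built into membrane phospholipids, and dystrophic muscle, which degenerates and regenerates, is known for disturbed energy metabolism.

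RNA of diaphragm and hindlimb muscle was compared on 34 2-colour arrays in 8 groups. The mdx mouse lacks dystrophin and is a model of Duchenne muscular dystrophy, BL10 is its control strain, and L-arginine is the substrate of nitric oxide synthases. The groups were untreated BL10 diaphragm, untreated BL10 hindlimb, untreated mdx diaphragm, untreated mdx hindlimb, and the same strains and tissues from mice given L-arginine. Each group had 1 array at 3, 5, 9 and 12 weeks of age, except that the untreated mdx groups had a Sample 1 and a Sample 2 at 12 weeks (n = 5, against n = 4 in the others).

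Every value below is the log2 of a deposited ratio, likely the named sample over a 12-week RNA of the same strain, so 0 means equal to that RNA and 1 means a doubling. The sources used here do not state the direction, and turning it would reverse every sign. A difference between mdx and BL10 is thus a difference in how far each strain stood from its own 12-week RNA, not a difference in level between the strains. The untreated 12-week arrays name the same strain and age in both channels. The channel labels do not name the tissue of the 12-week RNA, nor say whether it came from treated mice on the L-arginine arrays. Whether arrays share animals is not in the labels, so a p-value here reflects the spread from array to array and no more. In whole muscle, fewer cells of a type and less RNA per cell cannot be told apart.

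The median deposited ratio ran from 0.73 to 1.08 on the 18 untreated arrays and from 0.94 to 1.22 on the 16 L-arginine arrays. On 3 untreated arrays it was below 0.9, those of BL10 diaphragm at 3 weeks and of BL10 hindlimb at 3 and 12 weeks. The number of probes at 0 or below, which have no log2, reached 225 on an untreated array and 36 on an L-arginine array. Both channels of the 9-week L-arginine BL10 hindlimb array are labelled mdx, and the array was grouped by its title. The untreated and L-arginine arrays form separate tables, and the treatment cannot be told apart from the table. Fast muscle fibre genes were measured through 7 genes, and no gene of the fixed adipocyte or brown fat lists was measured.

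None of the 8 genes passed an adjusted p of 0.05 in any of the 14 comparisons made, which were the strain differences, their dependence on tissue, age, and the difference between the tables. The clearest regularities were with age. Acadl stood above its 12-week reference on all 8 arrays of 3-week mice and Scd1, as a mean over probes that differed among themselves, below it on 7 of 8. Of 444 genes with a value on all 8, 2.48% lay on 1 side of 0 on all of them and 12.8% on at least 7. Among strain differences within a tissue, Acad11 in untreated hindlimb and Hadh in L-arginine hindlimb were the largest relative to their error.

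**Figure D1:**
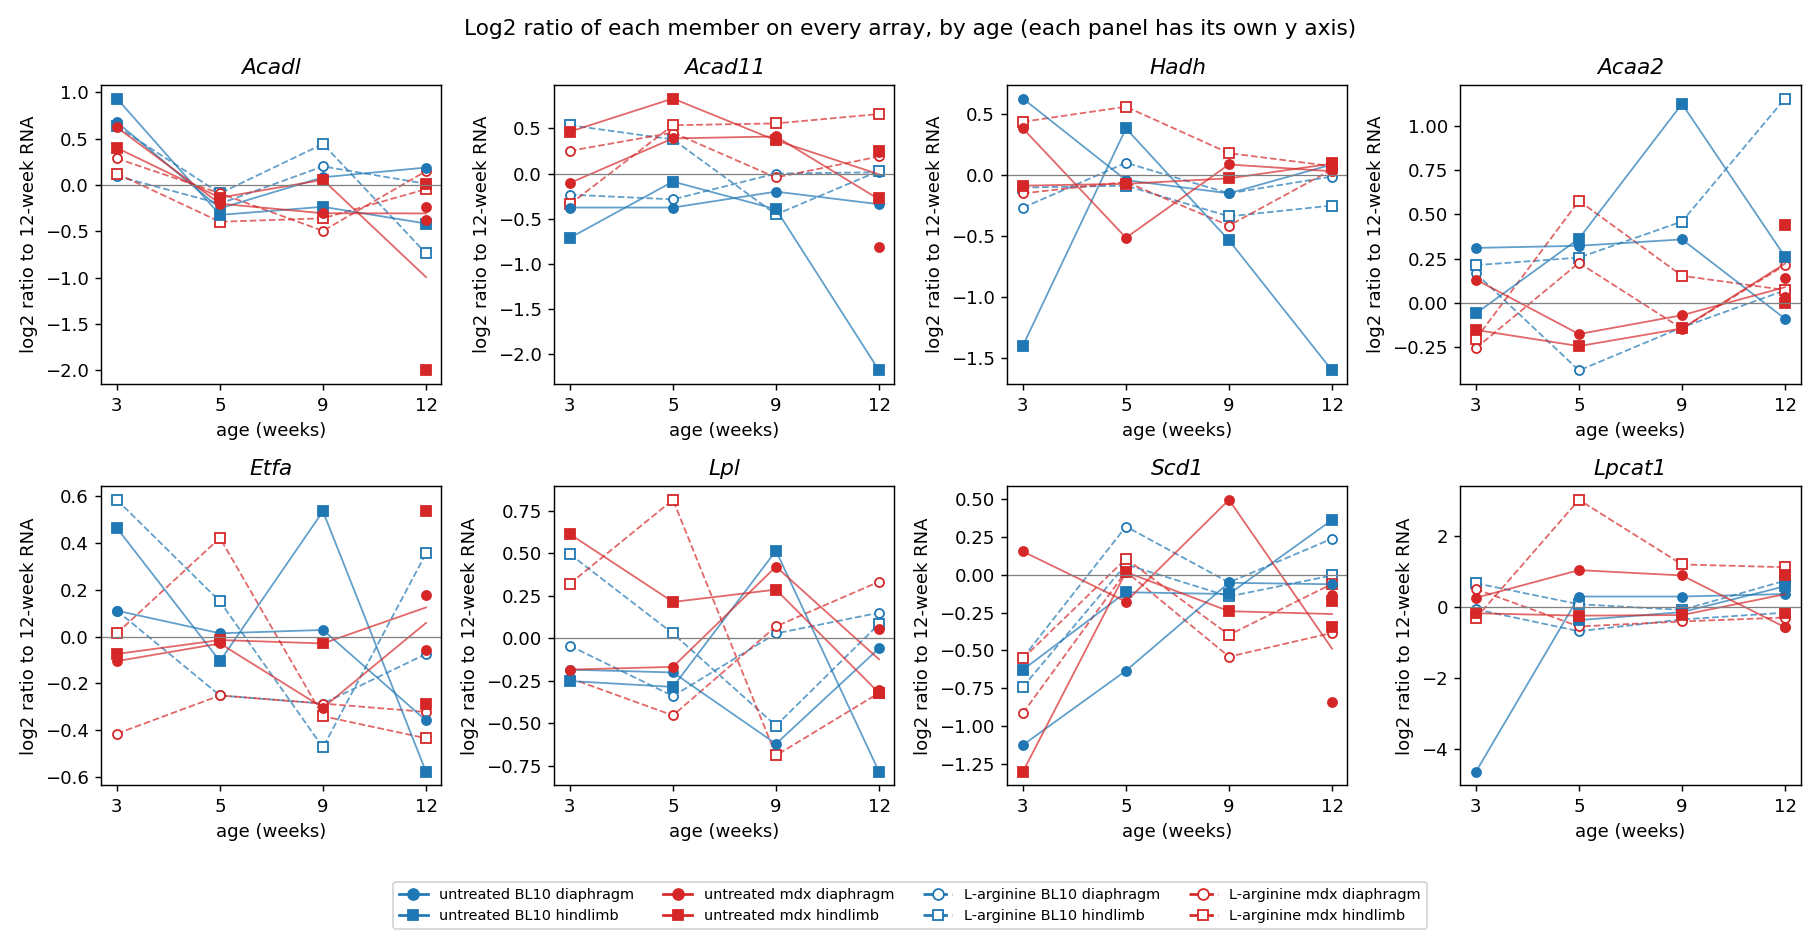
Log2 ratio to the 12-week RNA (y axis, own scale in each panel) against age in weeks (x axis) for each of the 8 genes; points are arrays, lines join the mean at each age within a group. At 3 weeks Acadl is above 0 in all groups and Scd1 below 0 in all groups but 1, and Lpcat1 reaches -4.64 and 3.01 on single arrays.

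For 3 genes of the oxidation pathway on which the results below turn, the 250 bases before the annotated start are printed as genomic context, from RefSeq on build GRCm38.p6, each read 5′ to 3′ on the strand of its gene. Capitals mark matches to the CCAAT box, searched on both strands as CCAAT or ATTGG.
Acadl, chr1:66863310-66863559, minus strand: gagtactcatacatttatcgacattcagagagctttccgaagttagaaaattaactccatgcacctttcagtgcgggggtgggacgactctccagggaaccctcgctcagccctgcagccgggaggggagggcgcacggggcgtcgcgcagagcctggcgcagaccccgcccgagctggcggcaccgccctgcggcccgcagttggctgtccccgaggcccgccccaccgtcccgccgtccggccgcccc
Acad11, chr9:104063474-104063723, plus strand: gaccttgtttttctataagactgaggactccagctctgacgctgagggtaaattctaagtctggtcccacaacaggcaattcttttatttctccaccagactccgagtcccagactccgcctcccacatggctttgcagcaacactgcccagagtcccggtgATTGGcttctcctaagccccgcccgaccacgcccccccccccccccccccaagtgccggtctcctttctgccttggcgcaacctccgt
Hadh, chr3:131272102-131272351, minus strand: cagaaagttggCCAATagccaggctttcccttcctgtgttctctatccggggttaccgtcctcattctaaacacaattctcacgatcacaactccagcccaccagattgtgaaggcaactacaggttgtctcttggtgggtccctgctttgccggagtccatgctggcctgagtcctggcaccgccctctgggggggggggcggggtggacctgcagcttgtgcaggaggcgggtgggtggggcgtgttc
The Acad11 window held 1 match, 88 bases before the start, and the Hadh window 1 match, 239 bases before the start, while the Acadl window held none. Of 32851 promoter windows of the same length, 33.85% held this motif. Neither AGGTCA, the half-site bound by many nuclear receptors and present in 14.02% of windows, nor TATAAA, present in 12.37%, was found in these 3 windows on either strand. The GC content was 68% for Acadl, 58.4% for Acad11 and 59.6% for Hadh, against a median of 52.4% over all windows. The arrays measured RNA only, so these letters are a description and say nothing of which factor acts there.

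Acadl encodes long-chain acyl-CoA dehydrogenase, which catalyses the first step of beta-oxidation. From 3 to 12 weeks the untreated BL10 arrays read 0.68, -0.25, 0.08 and 0.19 for diaphragm and 0.93, -0.32, -0.23 and -0.42 for hindlimb, as log2 ratios. The untreated mdx arrays, with Sample 1 before Sample 2 at 12 weeks, read 0.62, -0.20, -0.30, -0.23 and -0.38 for diaphragm and 0.40, -0.14, 0.06, 0.01 and -2.00 for hindlimb. The 3-week array was the highest of its group in all 4 untreated groups. With L-arginine, diaphragm read 0.10, -0.20, 0.20 and 0.01 for BL10 against 0.29, -0.09, -0.49 and 0.15 for mdx. Hindlimb read 0.63, -0.09, 0.44 and -0.74 for BL10 against 0.12, -0.40, -0.36 and -0.04 for mdx. Here the 3-week array was the highest in all groups except BL10 diaphragm, where the 9-week array was higher.

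Within each group the 3-week Acadl value exceeded the 12-week value in 8 of 8 groups, by 0.08 to 1.39 with a median of 0.71. It did so by only 0.08 in L-arginine BL10 diaphragm, 0.14 in L-arginine mdx diaphragm and 0.17 in L-arginine mdx hindlimb. The 1.39, of untreated mdx hindlimb, is against a 12-week mean that includes Sample 2 at -2.00. The share of all genes with 1 sign in 8 of 8 groups was not computed for this measure. The difference fitted over the groups was 1.09 ± 0.33 (SE, 18 arrays) in the untreated table and 0.44 ± 0.25 (SE, 16 arrays) with L-arginine. Neither passed (limma F test over the ages, adjusted p = 0.815 and 0.793). All 8 Acadl values stayed above 0 after median centring, quantile normalisation and removal of the print-order trend. The untreated difference was 0.80 without Sample 2 of mdx hindlimb, and the L-arginine difference fell to 0.14 without BL10 hindlimb at 12 weeks.

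Scd1 encodes stearoyl-CoA desaturase, which makes monounsaturated from saturated fatty acids and is a main enzyme of lipid synthesis. Averaged over its probes and in the same order of ages, untreated BL10 read -1.13, -0.63, -0.05 and -0.06 for diaphragm and -0.63, -0.12, -0.13 and 0.36 for hindlimb. Untreated mdx read 0.15, -0.18, 0.50, -0.84 and -0.14 for diaphragm and -1.30, 0.02, -0.24, -0.18 and -0.34 for hindlimb. The 3-week array was the lowest of its group except in mdx diaphragm. With L-arginine, diaphragm read -0.55, 0.32, -0.05 and 0.24 for BL10 against -0.91, 0.02, -0.54 and -0.38 for mdx. Hindlimb read -0.74, 0.07, -0.14 and 0.00 for BL10 against -0.55, 0.11, -0.40 and -0.06 for mdx. Here the 3-week array was the lowest in all 4 groups.

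The 3-week Scd1 value was below the 12-week value in 7 of 8 groups, with a range of -1.06 to 0.64 and a median of -0.76. The share of all genes with such a count was not computed. The fitted difference was -0.52 ± 0.29 (SE) in the untreated table and -0.64 ± 0.13 (SE) with L-arginine. The L-arginine age test was the closest to the threshold of any age test of these genes (limma, adjusted p = 0.0965), and that of the untreated table gave an adjusted p of 0.815. By probe, in table order, the fitted 3-week differences were -0.38, -0.61 and -0.57 in the untreated table and -0.46, -0.53 and -0.92 with L-arginine. The first untreated probe nonetheless lay above 0 on 2 of 4 arrays of 3-week mice, and below its 12-week value in 2 of 4 groups, those of hindlimb. The second L-arginine probe lay above 0 on 3 of 4 such arrays, and below its 12-week value in 4 of 4 groups. After quantile normalisation, and after removal of the print-order trend, Scd1 was below 0 on 8 of 8 arrays of 3-week mice.

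**Figure D2:**
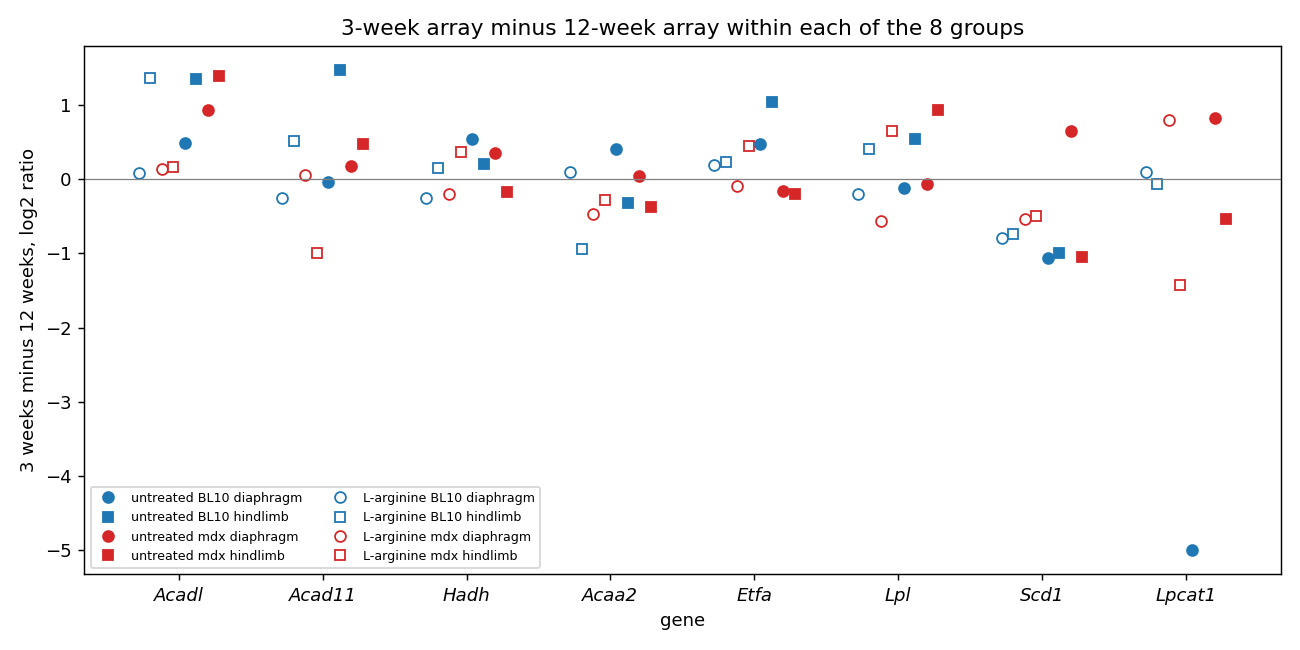
Difference in log2 ratio between the 3-week array and the 12-week array, or the mean of both 12-week arrays, in each group (y axis) for each gene (x axis); each point is a group, coloured by strain, shaped by tissue and filled for untreated. Acadl is above 0 in 8 of 8 groups and Scd1 below 0 in 7 of 8, while the other genes scatter on both sides; Lpcat1 has 7 groups, 1 of them at -5.00. No share over all genes was computed for these counts.

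The remaining genes had no common direction at 3 weeks. Hadh was above the 12-week reference on 3 of 8 arrays, as were Lpl and Acad11, while Etfa was above it on 5 of 8 and Acaa2 on 4 of 8. Lpcat1 was above it on 3 of 7 arrays with a value. Of all genes, 0% passed the age test in either table after adjustment, and 4.71% in the untreated and 5.69% in the L-arginine table had an unadjusted p under 0.05. Among the 8, Acadl and Acad11 did so in the untreated table and Scd1 in the L-arginine table. For Acad11 the largest age difference was at 5 weeks, 0.85 ± 0.29 above 12 weeks (SE, untreated), against 0.05 ± 0.26 with L-arginine. The untreated value was 0.57 without the 3 arrays of low median ratio. By untreated group it was -0.04 in BL10 diaphragm, 2.1 in BL10 hindlimb, 0.68 in mdx diaphragm and 0.84 in mdx hindlimb.

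Acad11 encodes a member of the acyl-CoA dehydrogenase family. In untreated hindlimb its log2 ratios from 3 to 12 weeks read -0.71, -0.09, -0.40 and -2.18 for BL10, against 0.46, 0.83 and 0.37 for mdx, followed by 0.25 (Sample 1) and -0.27 (Sample 2). All 4 BL10 arrays lay below 0 and 4 of 5 mdx arrays above it, but Sample 2 fell within the BL10 range. The lowest BL10 value, -2.18, is of the 12-week array, whose channels name the same strain and age. The fitted difference between mdx and BL10 was 1.28 ± 0.30 (SE), the largest for any of the 8 genes in any strain comparison, and did not pass (limma, adjusted p = 0.155). It was 0.82 without the 3 arrays of low median ratio, of which BL10 hindlimb at 3 and 12 weeks belong to this comparison.

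In untreated diaphragm Acad11 was -0.38, -0.38, -0.20 and -0.34 in BL10 and -0.10, 0.39, 0.41, 0.24 and -0.81 in mdx, Sample 1 before Sample 2. Again only Sample 2 of the mdx arrays lay below the BL10 values, and the difference was 0.45 ± 0.30 (SE). Averaged over both tissues it was 0.86 ± 0.22 (SE; limma, adjusted p = 0.237), and the tissues differed by 0.83 ± 0.43 (SE; adjusted p = 0.774). With L-arginine, Acad11 in diaphragm read -0.23, -0.29, 0.00 and 0.01 for BL10 against 0.25, 0.45, -0.04 and 0.19 for mdx. In hindlimb it read 0.54, 0.38, -0.45 and 0.03 for BL10 against -0.34, 0.54, 0.56 and 0.66 for mdx. The groups overlapped in both tissues, with differences of 0.34 ± 0.26 and 0.23 ± 0.26 (SE). The sign of the Acad11 difference was positive in both tissues and both tables, and remained so under each alternative computed for these 4 comparisons. The median over all genes was also above 0 in each, at 0.15 and 0.16 in untreated diaphragm and hindlimb and 0.02 and 0.13 with L-arginine. The share of all genes with 1 sign in all 4 was not computed. In L-arginine hindlimb the Acad11 difference was 0.03 without the BL10 array whose channels are labelled mdx, and 0.50 without the mdx 3-week array.

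Hadh encodes the mitochondrial 3-hydroxyacyl-CoA dehydrogenase of medium and short chains, which carries out the second dehydrogenation of the cycle. In L-arginine hindlimb its log2 ratios were -0.10, -0.09, -0.34 and -0.25 in BL10 and 0.43, 0.56, 0.18 and 0.07 in mdx, from 3 to 12 weeks. The 4 mdx arrays all lay above the 4 BL10 arrays, the only such separation of the 8 genes in any of the 4 strain comparisons within a tissue. The lowest BL10 value, -0.34 at 9 weeks, is of the array whose channels are both labelled mdx. Counted as mdx, that array would end the separation. The separation is also one of values that were not centred. The array median log2 ratio was 0.15 on the mdx 12-week array, where Hadh read 0.07. It was -0.06 on the BL10 3-week array, where Hadh read -0.10. Measured from these medians, the mdx 12-week array fell below the BL10 3-week array, so the groups overlapped. The share of genes whose mdx and BL10 arrays did not overlap, in either direction, was 6.24% in this comparison, 5.7% in L-arginine diaphragm, 3.46% in untreated diaphragm and 3.47% in untreated hindlimb. The Hadh difference was 0.51 ± 0.15 (SE) and did not pass (limma, adjusted p = 0.114), with 0.24 after removal of the print-order trend and 0.61 without the mdx 12-week array.

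In L-arginine diaphragm Hadh was -0.27, 0.10, -0.15 and -0.01 in BL10 and -0.15, -0.06, -0.42 and 0.04 in mdx, and the groups overlapped. The hindlimb difference exceeded the diaphragm difference by 0.57 ± 0.21 (SE; limma, adjusted p = 0.695). In untreated hindlimb the values were -1.40, 0.38, -0.54 and -1.60 in BL10 and -0.09, -0.07, -0.03, 0.10 and 0.08 in mdx. The mdx arrays stayed within 0.10 of the reference, while BL10 scattered by 0.90 (SD), with its lowest values on both arrays of low median ratio. The difference of 0.81 ± 0.35 (SE; adjusted p = 0.397) became -0.06 without the 3 arrays of low median. In untreated diaphragm it was -0.10 ± 0.35 (SE).

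Lists of genes of other cells and fibre types were set beside these values. The mean of the 7 fast muscle fibre genes ran from -1.62 to -0.04 in untreated BL10 hindlimb, lowest at 3 and 12 weeks like Hadh, and from -0.25 to 0.21 in untreated mdx hindlimb. Low values in untreated BL10 hindlimb were not particular to fast fibre genes. There the mean of 10 respiratory chain genes ran from -0.83 to 0.02, and that of 6 genes of fatty acid uptake and oxidation from -0.83 to 0.01. The 3- and 12-week arrays of that group are of low median ratio, with 225 and 128 probes at 0 or below. With L-arginine the fast fibre mean ran from -0.13 to 0.18 in BL10 and from 0.03 to 0.48 in mdx hindlimb. The mean of 4 macrophage genes, C1qb, Cd68, Gpnmb and Lyz2, ran from -0.39 to 0.36 in L-arginine BL10 hindlimb and from 0.99 to 1.32 in mdx hindlimb. In untreated hindlimb it ran from -0.64 to 0.49 in BL10 and from 0.14 to 1.16 in mdx. The strain difference there was above 0 for 3 of the 4 genes, but -0.73 ± 0.47 (SE) for Cd68. In L-arginine diaphragm the macrophage mean ran from 0.02 to 0.57 in BL10 and from 0.75 to 1.04 in mdx. The strain differences there were -0.06 ± 0.15 for Hadh and 0.34 ± 0.26 for Acad11 (SE). Over both L-arginine tissues, 2 of 4 macrophage genes and 2 of 5 matrix genes passed as higher in mdx. The part of these lists in the Hadh and Acad11 values was not tested. By the lower of its rho values in the tables, the nearest to Hadh of 631 genes was Myh4, a fast myosin heavy chain. Its Spearman rho was 0.61 over 18 untreated and 0.60 over 16 L-arginine arrays. Itm2b (0.59 and 0.82) and Ciapin1 (0.55 and 0.56) came next, and the arrays share reference labels and array-wide shifts.

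**Figure D3:**
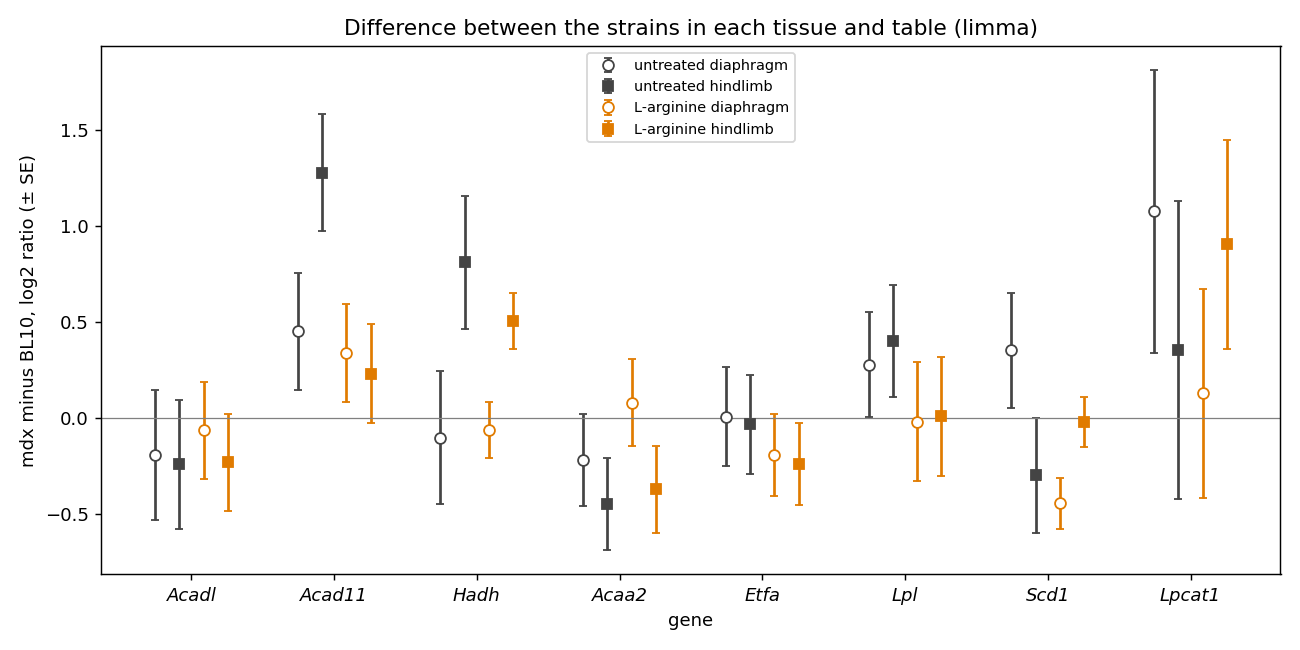
Fitted difference between mdx and BL10 in log2 ratio (y axis, bars are SE) for each gene (x axis) in untreated (grey) and L-arginine (orange) diaphragm (open circles) and hindlimb (squares). Acad11 in untreated hindlimb is highest at 1.28, Hadh is above 0 in hindlimb and near 0 in diaphragm in both tables, and no point passed an adjusted p of 0.05.

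Acaa2 encodes the mitochondrial 3-ketoacyl-CoA thiolase, which cleaves the shortened chain in the last step. In untreated hindlimb it was -0.06, 0.36, 1.12 and 0.26 in BL10 and -0.15, -0.24, -0.14, 0.00 and 0.44 in mdx, and in L-arginine hindlimb 0.21, 0.26, 0.46 and 1.16 in BL10 and -0.20, 0.58, 0.15 and 0.07 in mdx. The mdx arrays overlapped those of BL10 in both tables, and 1 BL10 array stood above 1 in each. The differences were -0.45 ± 0.24 and -0.37 ± 0.23 (SE; limma, adjusted p = 0.470 and 0.363), and the untreated one became 0.34 with values of 0 or below at the lowest positive value. In diaphragm they were -0.22 ± 0.24 and 0.08 ± 0.23 (SE). The pair of Acaa2 probes, listed under the same sequence entry, did not follow each other over arrays, with rho of 0.14 (17 untreated arrays) and -0.003 (16 L-arginine arrays), so the gene mean joins unlike readings. In untreated hindlimb the strain difference was -1.33 ± 0.27 for one probe (SE; limma over all probes, adjusted p = 0.0781) and 0.03 ± 0.25 for the other. The first of these had no value on the BL10 3-week array, where the gene value rests on the other probe.

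Etfa encodes the alpha subunit of the electron transfer flavoprotein, which accepts electrons from the acyl-CoA dehydrogenases. Its group means lay between -0.32 ± 0.07 (SD, n = 4) in L-arginine mdx diaphragm and 0.15 ± 0.45 (SD, n = 4) in L-arginine BL10 hindlimb. In L-arginine mdx diaphragm the 4 arrays gave -0.42, -0.25, -0.29 and -0.32, all below the reference, while those of BL10 diaphragm gave 0.11, -0.25, -0.29 and -0.07 and overlapped them. Its strain differences ran from -0.24 to 0.01, with SE of 0.21 to 0.26. Etfa thus showed the smallest strain differences of the 5 oxidation genes in the untreated table, at 0.01 ± 0.26 in diaphragm and -0.03 ± 0.26 (SE) in hindlimb.

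The strain differences of Acadl were each within 1 SE of 0. They were -0.19 ± 0.34 and -0.24 ± 0.34 (SE) in untreated diaphragm and hindlimb, and -0.06 ± 0.25 and -0.23 ± 0.25 (SE) with L-arginine. The sign turned in untreated hindlimb without Sample 2 of mdx (0.09), in L-arginine diaphragm without mdx at 9 weeks (0.13), in untreated diaphragm without BL10 at 12 weeks (0.003) and in L-arginine hindlimb after removal of the print-order trend (0.006).

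Lpl encodes lipoprotein lipase, which frees fatty acids from lipoproteins at the vessel wall. In untreated hindlimb it was -0.25, -0.29, 0.52 and -0.79 in BL10 and 0.61, 0.21, 0.29 and -0.32 in mdx, where Sample 2 had no value and was left out by the fit. In untreated diaphragm it was -0.18, -0.20, -0.62 and -0.06 in BL10 and -0.18, -0.17, 0.42, 0.06 and -0.30 in mdx. The groups overlapped, with differences of 0.40 ± 0.29 and 0.28 ± 0.27 (SE). The hindlimb difference became -0.42 with values of 0 or below, such as Sample 2, at the lowest positive value, and the diaphragm one -0.04 after removal of the print-order trend. With L-arginine the differences were 0.01 ± 0.31 in hindlimb and -0.02 ± 0.31 (SE) in diaphragm. The widest spread was in L-arginine mdx hindlimb, from -0.69 at 9 weeks to 0.82 at 5 weeks.

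Scd1 in L-arginine diaphragm was lower in mdx than in BL10 relative to the 12-week RNA by 0.44 on the log2 scale. The fitted difference was -0.44 ± 0.13 (SE; limma, adjusted p = 0.519), and at each age the mdx array lay below the BL10 array, although the groups overlapped across ages. In L-arginine hindlimb it was -0.02 ± 0.13, over both tissues -0.23 ± 0.09 (SE; limma, adjusted p = 0.287; -0.40 with an adjusted p of 0.0474 after removal of the print-order trend), and the tissues differed by 0.42 ± 0.19 (SE; adjusted p = 0.695). In the untreated table the differences were 0.35 ± 0.30 in diaphragm and -0.30 ± 0.30 (SE) in hindlimb.

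The Scd1 mean hid a disagreement between its probes. Of the 3 in the L-arginine table, the third in table order gave -2.40, -0.45, -2.12 and -1.40 in mdx diaphragm and -1.84, -0.23, -1.89 and -1.32 in mdx hindlimb, from 3 to 12 weeks. Its BL10 values ran from -1.03 to 0.46 in diaphragm and from -1.12 to 0.16 in hindlimb. The second probe, listed under the same sequence entry, averaged 0.77 ± 0.44 in mdx diaphragm and 0.56 ± 0.26 in mdx hindlimb (SD, n = 4), with every mdx array above 0. The first probe, of another entry, averaged -0.54 ± 0.32 and 0.08 ± 0.18 (SD, n = 4).

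Tested by probe, the strain difference over both tissues was -1.13 ± 0.17 (SE) for the third Scd1 probe, which passed (limma over all probes, adjusted p = 0.00362), 0.38 ± 0.13 for the second (adjusted p = 0.184) and 0.06 ± 0.14 for the first. In diaphragm alone the third probe also passed, at -1.38 ± 0.24 (SE; adjusted p = 0.0371). In hindlimb it was -0.89 ± 0.24 (SE; adjusted p = 0.0762). The second and the third probe had rho of -0.26 over 16 arrays. In the untreated table the probes of 1 entry also ran apart, with rho of -0.28 over 18 arrays, while the pairs of different entries had rho of 0.62 and -0.15. The direction of Scd1 between the strains depended on the probe read.

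**Figure D4:**
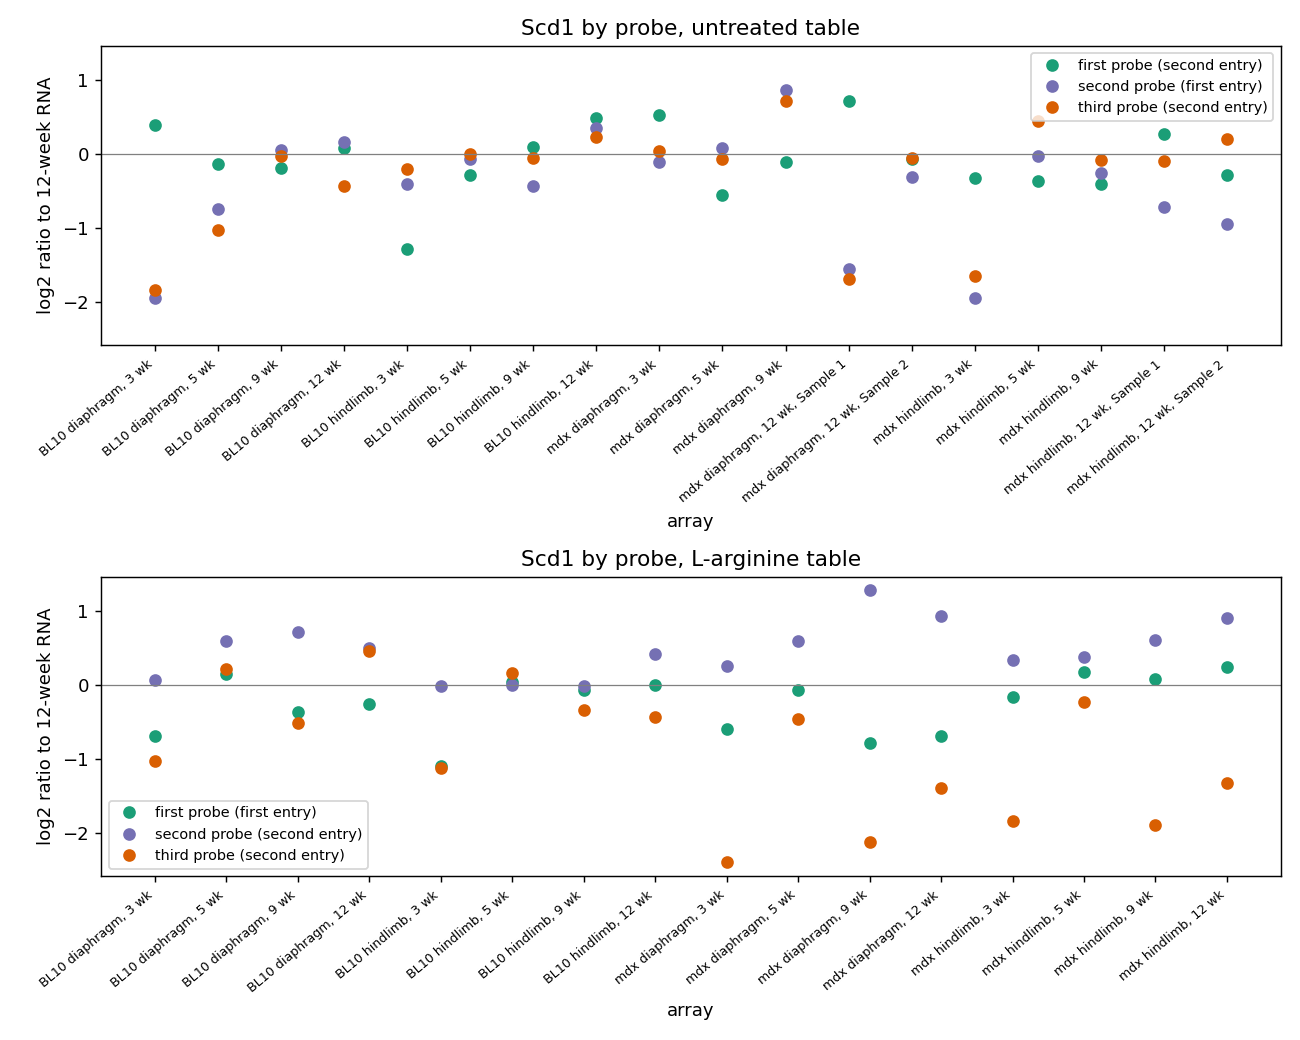
Log2 ratio to the 12-week RNA (y axis) of the 3 Scd1 probes on each untreated (top) and L-arginine (bottom) array (x axis, grouped by strain and tissue); probe order does not match between the tables. On the L-arginine mdx arrays the third probe lies between -2.40 and -0.23 while the second, of the same sequence entry, lies above 0 on each of them.

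Lpcat1 encodes lysophosphatidylcholine acyltransferase, which rebuilds phosphatidylcholine from its lyso form. In L-arginine mdx hindlimb it was -0.32, 3.01, 1.19 and 1.11 from 3 to 12 weeks, against 0.66, 0.07, -0.09 and 0.73 in BL10. The 3 later mdx arrays lay above all BL10 arrays and the 3-week array below them. The difference was 0.90 ± 0.54 (SE; limma, adjusted p = 0.363), which became 0.21 without the 5-week mdx array and 1.57 without the 3-week one. The 5-week array also had the highest median ratio of its table, 1.22. In L-arginine diaphragm it was -0.07, -0.69, -0.36 and -0.17 in BL10 and 0.50, -0.56, -0.42 and -0.30 in mdx, with a difference of 0.13 ± 0.54 (SE).

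In untreated diaphragm Lpcat1 was -4.64, 0.29, 0.29 and 0.36 in BL10 and 0.25, 1.03, 0.88, -0.58 and -0.58 in mdx. Its difference of 1.08 ± 0.74 (SE; adjusted p = 0.672) rested on the 3-week BL10 array, an array of low median ratio, and was -0.08 without it. In untreated hindlimb the 3-week BL10 array had no value and was left out by the fit, and the others gave -0.38, -0.15 and 0.58, against -0.18, -0.25, -0.23, -0.18 and 0.89 in mdx. The groups overlapped, with a difference of 0.35 ± 0.77 (SE). The gene whose pattern was nearest to Lpcat1 was Tnf, over arrays that share their reference labels. Its rho was 0.68 in the untreated table, where Lpcat1 had a value on 17 arrays, and 0.78 with L-arginine (16 arrays).

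Against these counts of 0 of 8 genes, the share of all genes that passed after adjustment was 0% in untreated diaphragm, 0.157% in untreated hindlimb and 0% over both untreated tissues. It was 0.158% in L-arginine diaphragm, 0.158% in L-arginine hindlimb and 1.58% over both L-arginine tissues. At an unadjusted p under 0.05 the shares of all genes were 9.89%, 12.4% and 14.4% in the untreated table, in that order, and 3.16%, 18.8% and 12.8% with L-arginine. The 8 genes gave 0, 2 (Acad11 and Hadh) and 1 (Acad11) in the untreated table, and 1 (Scd1), 1 (Hadh) and 1 (Scd1) with L-arginine. For the dependence on tissue, 0% passed in each table, with unadjusted shares of 4.71% untreated and 6.79% with L-arginine. Among the 8 genes, 0 had an unadjusted p under 0.05 for it in the untreated table and 2, Hadh and Scd1, with L-arginine.

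The median difference of the 8 genes between mdx and BL10 was 0.14 in untreated diaphragm and 0.16 in untreated hindlimb, beside 0.15 and 0.16 over all genes. With L-arginine it was -0.04 in diaphragm and -0.01 in hindlimb, beside 0.02 and 0.13 over all genes. The 8 genes did not move as a unit. Of the 28 pairs, 5 had a positive rho in both tables and 0 had one above 0.4 in both. The median rho was -0.07 over up to 18 untreated arrays and -0.003 over 16 L-arginine arrays. The median absolute log2 ratio of the 8 genes at 3, 5, 9 and 12 weeks was 0.38, 0.23, 0.26 and 0.27 in the untreated table, beside 0.34, 0.22, 0.20 and 0.27 over all genes. With L-arginine it was 0.28, 0.27, 0.34 and 0.18, beside 0.28, 0.31, 0.27 and 0.30, so it was lower than over all genes at 12 weeks and higher at 9 weeks.

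Between the tables, Acad11 in BL10 hindlimb was higher with L-arginine by 0.97 ± 0.31 (SE), just short of the threshold (limma, adjusted p = 0.0640). Its untreated BL10 hindlimb mean was -0.85 ± 0.93 and its L-arginine mean 0.12 ± 0.44 (SD, n = 4). It passed without the L-arginine 9-week array, whose channels are labelled mdx, at 1.21 (adjusted p = 0.0344), and without the untreated 5-week or 9-week array. Without the 3 untreated arrays of low median the difference was 0.46. Hadh in the same groups was higher by 0.59 ± 0.28 (SE; adjusted p = 0.227), and the difference was -0.16 without those arrays and 0.99 without the untreated 5-week array, where it passed (adjusted p = 0.0196). In the same groups 2 of 7 fast fibre genes, Mylpf (1.89 ± 0.55, adjusted p = 0.0445) and Tnni2 (1.17 ± 0.29, adjusted p = 0.0193), and 1 of 5 matrix genes, Fmod (1.77 ± 0.30 SE, adjusted p = 0.000982), passed as higher with L-arginine. The median difference was 0.69 for the fast fibre and 1.00 for the matrix genes, beside 0.24 over all genes, and the part of these lists in the Acad11 and Hadh differences was not tested. For Lpcat1 in mdx hindlimb the difference was 1.27 ± 0.68 (SE; adjusted p = 0.310), and 0.73 without the L-arginine 5-week array. Acad11 in mdx hindlimb was at -0.03 ± 0.30 (SE), with means of 0.33 untreated and 0.35 with L-arginine.

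The largest of the remaining table differences was that of Lpcat1 in BL10 diaphragm, 0.61 ± 0.71 (SE), which was -0.61 without the untreated 3-week array. Of all genes, 0% passed in BL10 diaphragm, 0.633% in mdx diaphragm, 4.27% in BL10 hindlimb and 3.01% in mdx hindlimb, and 0 of the 8 did in each. At an unadjusted p under 0.05 the shares were 7.75%, 12%, 19.9% and 18.7%, and the 8 genes gave 2 in BL10 hindlimb, Acad11 and Hadh, and 0 in the others. These values stand for treatment and table together.

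Few other genes of lipid metabolism were on the arrays. Of a list of 62 genes of fatty acid uptake and oxidation, 6 were measured, and of 61 genes of lipid synthesis and storage, 2 were, and 0 of these 8 passed in any comparison. Slc27a1, a fatty acid transporter, differed between mdx and BL10 by 0.66 ± 0.26 (SE; limma, adjusted p = 0.397) in untreated diaphragm, the largest of the 6 there. In untreated hindlimb Acadsb, a short branched-chain acyl-CoA dehydrogenase, differed by 0.60 ± 0.29 and the acyl-CoA binding protein gene Dbi by 0.39 ± 0.22 (SE). In L-arginine hindlimb Decr1, needed for unsaturated fatty acids, differed by 0.40 ± 0.24 and Acad8 by 0.32 ± 0.18 (SE), and in L-arginine diaphragm Acadsb by -0.12 ± 0.19 and Acad8 by 0.11 ± 0.18 (SE). Oxct1, of ketone body use, was the runner-up in untreated diaphragm at 0.18 ± 0.62 (SE).

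Acacb makes malonyl-CoA, the inhibitor of fatty acid entry into mitochondria. Its difference was -0.84 ± 0.28 (SE; limma, adjusted p = 0.362) in untreated hindlimb and -0.82 ± 0.64 (SE) in L-arginine hindlimb, with 0.23 ± 0.27 and -0.21 ± 0.64 (SE) in diaphragm. The L-arginine BL10 hindlimb arrays averaged 1.38 ± 2.17 for Acacb (SD, n = 4) and ran from -0.06 to 4.61. Untreated BL10 hindlimb had an Acacb value on only 3 arrays. Pnpla2, which encodes the triglyceride lipase of fat stores, differed by 0.32 ± 0.41 and 0.69 ± 1.02 (SE) in untreated and L-arginine hindlimb. Of 10 measured genes of the respiratory chain, 1 passed in 1 comparison, the BL10 hindlimb table difference, where it was higher with L-arginine.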

How the data were processed

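The 34 arrays lie in 2 value tables, 18 untreated and 16 L-arginine. The deposited values are of another kind than a stated unit; from the values, whose medians lie near 1, they were read as linear ratios of both channels. How the arrays were scanned, corrected, normalised and dyed was not given in the sources used here, so scale, centring and direction stay unknown as stated facts. Genes were named from probes with 1 symbol in the platform annotation, 812 per table. Values of 0 or below became missing, ratios were turned into log2 and averaged per gene, and a gene needed values on 75% or more of a table's arrays to be tested. With limma 3.58.1 (R 4.3.3), a model with group and age was fitted to each table (637 untreated, 633 L-arginine genes), and to both for differences between tables (632 genes). Benjamini-Hochberg adjustment ran over all genes, with a threshold of 0.05. The fit of the L-arginine hindlimb strain difference was tested on simulated data, with independent values and no age effect. The other fits were not tested in this way. Arrays were grouped by the title's tissue, strain, treatment and age. The alternatives were median centring, quantile normalisation, removal of a running median of 51 probes in print order, missing values at the lowest positive value, no filter, single probes, no 12-week arrays, and leaving out single arrays, the array with disagreeing labels or, chosen after seeing the data, the 3 untreated arrays with a median ratio below 0.9. The number of arrays limits the precision. The genes and gene lists were chosen with earlier results of these data known. All 8 genes are named in each comparison, and the 2 pathway genes with the largest difference per list and strain comparison.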

Additional observations from a re-analysis of the deposited data

Results flagged for a closer look

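Among interchangeable arrays, chance sets 1 array apart in about 1 set in 20. The sets here span the ages, so that share is no fair comparison for them. In 8 of the 63 sets of 4 or 5 arrays of a gene in a group that were tested, 1 array stood apart from the rest. For Acadl it was the 3-week array of untreated BL10 hindlimb, at 0.93 with the others from -0.42 to -0.23, and that of untreated mdx diaphragm, at 0.62 with the others from -0.38 to -0.20. It was also Sample 2 of untreated mdx hindlimb at 12 weeks, at -2.00 with the others from -0.14 to 0.40. For Scd1 it was the 3-week array of untreated mdx hindlimb, at -1.30 with the others from -0.34 to 0.02. For Lpcat1 it was the 3-week array of untreated BL10 diaphragm, at -4.64 with the others from 0.29 to 0.36, and Sample 2 of untreated mdx hindlimb, at 0.89 with the others from -0.25 to -0.18. For Acad11 it was the 3-week array of L-arginine mdx hindlimb, at -0.34 with the others from 0.54 to 0.66. For Acaa2 it was the 12-week array of untreated BL10 diaphragm, at -0.089 with the others from 0.31 to 0.36. Of these 8 values, 5 are of 3-week arrays.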

How the results depend on the processing

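Over the 14 comparisons, 408 of 416 recomputed counts of genes called among the 8 were 0, as reported. With single probes, 1 gene, Scd1, was called in L-arginine diaphragm and over both L-arginine tissues, and 1, again Scd1, over both L-arginine tissues after removal of the print-order trend. In the BL10 hindlimb table difference, 1 gene, Acad11, was called with missing values at the lowest positive value and with the array of disagreeing labels left out. Leaving out single arrays gave 0 to 2 there: Acad11 without untreated 9 weeks or L-arginine 9 weeks (the array of disagreeing labels), and Acad11 and Hadh without untreated 5 weeks; in the other comparisons it gave 0. Of 2880 recomputed differences, 2681 kept their sign. Of the same 2880, 28 moved by more than 1 SD of the residuals of the gene in the fit with group and age. These lay in 21 of the 96 combinations of gene and comparison. The cause was not tested. No paired analysis was possible because the groups share ages rather than replicate pairs, and age is already a term of the fit. Single probes were not run for table differences, since probes do not match across tables. Counts over all genes moved more: from 27 to between 3 and 79 in the BL10 hindlimb table difference, from 19 to between 0 and 28 in mdx hindlimb, from 4 to between 0 and 23 in mdx diaphragm, from 0 to at most 19 in BL10 diaphragm, from 10 to between 0 and 18 over both L-arginine tissues, from 1 to between 0 and 14 in L-arginine hindlimb, from 1 to between 0 and 9 in untreated hindlimb, and from 0 to at most 4 for age in the untreated table. A single array per age in each group, values of 0 or below, and the unknown normalisation limit these values.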

Other observations

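Sample 1 and Sample 2, the arrays of untreated mdx muscle at 12 weeks, differed over all genes by a median of 0.44 in diaphragm and 0.46 in hindlimb, in absolute log2 ratio. Hadh differed by 0.00 in diaphragm and -0.01 in hindlimb. Acadl was lower on Sample 2 by 2.01 in hindlimb, where it was measured at -2.00 and 0.01, and Acad11 was lower by 1.05 in diaphragm. Lpcat1 was higher on Sample 2 by 1.07 in hindlimb and equal in diaphragm.

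Among 631 genes compared by the lower of their rho values in both tables, those most like the other members were Frmd8 for Acadl (0.65 and 0.67), Bak1 for Acad11 (0.51 and 0.66), Erbb3 for Etfa (0.53 and 0.78) and for Lpl (0.63 and 0.50), Sdf4 for Acaa2 (0.50 and 0.56) and Cnppd1 for Scd1 (0.42 and 0.53). Each rho used the arrays with a value for both genes, up to 18 untreated and up to 16 L-arginine arrays. These arrays share reference labels and array-wide shifts.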
